A study of Mus musculus with 6 samples.

Results

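The genes for the receptors of glutamate, GABA and glycine were followed in cultured neural stem cells that lacked the DNA methyltransferase Dnmt3a. Members were the genes on the array whose names begin as those of AMPA (Gria), kainate (Grik), NMDA (Grin1 to Grin3) and metabotropic glutamate receptors (Grm), of GABA-A subunits (Gabr) and of glycine receptor subunits (Glra, Glrb). This gave 47 of 28786 gene names, measured by 81 probes, 1 to 4 per gene. The probe with the highest mean signal stood for each gene. The cells came from the lateral ventricle walls (subventricular zone) of mice at postnatal day 14 to 21 and were grown as monolayers with FGF-2 and EGF at 10 ng/ml each. Each of 6 arrays with 2 colours compared wild-type (WT) with Dnmt3a-null (KO) RNA: 4 held proliferating cells harvested after 2 to 3 passages, and 2 held differentiating cells, re-plated for 2 days with mitogens and then kept for 3 days without them. The dyes were swapped, the KO RNA carrying Cy5 in the proliferating replicates 1 and 3 and in the differentiating replicate 2, and Cy3 otherwise. All groups share the culture, so no value here is from tissue, and the sources used here do not give how the null allele was made.

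Glutamate opens AMPA, kainate and NMDA receptors, which are cation channels, and acts more slowly through metabotropic receptors coupled to G proteins. GABA-A and glycine receptors are chloride channels, and GABA can depolarise immature neural cells, where internal chloride is high. In the subventricular zone, GABA released by neuroblasts acts on the stem cells and is known to restrain their division. Dnmt3a adds methyl groups to cytosines, mostly where a C is followed by a G.

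The targeted gene was lower in KO RNA on every array: the log2 KO over WT ratio of Dnmt3a averaged -0.96 ± 0.22 (SD, n = 4) in proliferating and -1.38 ± 0.14 (SD, n = 2) in differentiating cells. All 8 markers of neural stem cells were tested, and Nes and Sox2 were well above background in both channels of every array. Per channel, 52.3% to 59.1% of the spots for genes stood well above background, and the number of arrays limits the precision. Ratios over all genes tested correlated at 0.05 to 0.27 between proliferating replicate 1 and the other proliferating arrays, at 0.48 between replicates 2 and 4, at 0.49 between replicates 3 and 4, and at 0.70 between the differentiating arrays. Proliferating replicates 3 and 4 stood apart in sex-linked genes: Xist was well above background in both channels of these arrays alone, and the log2 KO over WT ratio of the Y-linked Ddx3y was 2.41 and 2.94 there, against 0.01 and -0.12 on replicates 1 and 2. The channels of these 2 arrays thus differed in sex-linked RNA, and calls of the named genes that end or arise without them are given both ways.

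Of the 47 receptor genes, 28 were tested, those that stood well above background on 2 or more arrays in either channel, and 16 were so in both channels on all 6 arrays. Of the others, judged by the same chosen probe, 17 were well above background on no array, and Gabra3 and Grm8 on 1 array. Glutamate receptors were measured more completely than inhibitory ones. All 4 AMPA genes, 4 of 5 kainate genes (not Grik3), 6 of 7 NMDA genes (not Grin2a) and both group I metabotropic genes were tested, with 1 of 2 group II genes (Grm3) and 1 of 4 group III genes (Grm7). Of the 18 GABA-A genes 9 were tested: 2 of 6 alpha subunits (Gabra2, Gabra4), 2 of 3 beta subunits, 2 of 3 gamma subunits and Gabrd, Gabrp and Gabrr1. Among glycine receptor genes the beta subunit Glrb, which anchors the receptor to gephyrin, was tested, while the chosen probes of the 4 alpha subunits, which bind glycine, were well above background on no array. A dimmer Glra3 probe was so on 1 array. The NMDA subunit gene Grin2a, known for late expression in brain development, was among the genes never well above background.

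In proliferating cells 1 of the 28 receptor genes passed at an adjusted p under 0.05 (limma, Benjamini-Hochberg over all 18062 genes tested), where 0.952% of all genes did. It was Grik4, which was higher in KO cells, as were 0.615% of all genes. In differentiating cells 4 of the 28 passed, where 3.08% of all genes did, and all 4 fell in KO cells, a direction taken by 0.902% of all genes. Gria4, Grm3 and Grin2b were among them. The median log2 KO over WT ratio of the 28 was 0.06 in proliferating and -0.01 in differentiating cells, against -0.01 and -0.01 over all genes. At an unadjusted p under 0.05, 11 and 9 receptor genes were counted, where 16.0% and 17.5% of all genes were. These 4 falls rest on both differentiating arrays: with either left out, no gene on the array passed in that comparison, since the remaining array has no replicate of its own and borrows the spread of the proliferating ones. Without proliferating replicate 2, 3 or 4, which share that spread, 2 receptor genes passed each time, Gria4 among them. The count in proliferating cells was 2 without replicate 1, 0 without replicate 2 or 3, 1 without replicate 4 and 0 without either differentiating array.

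**Figure D1:**
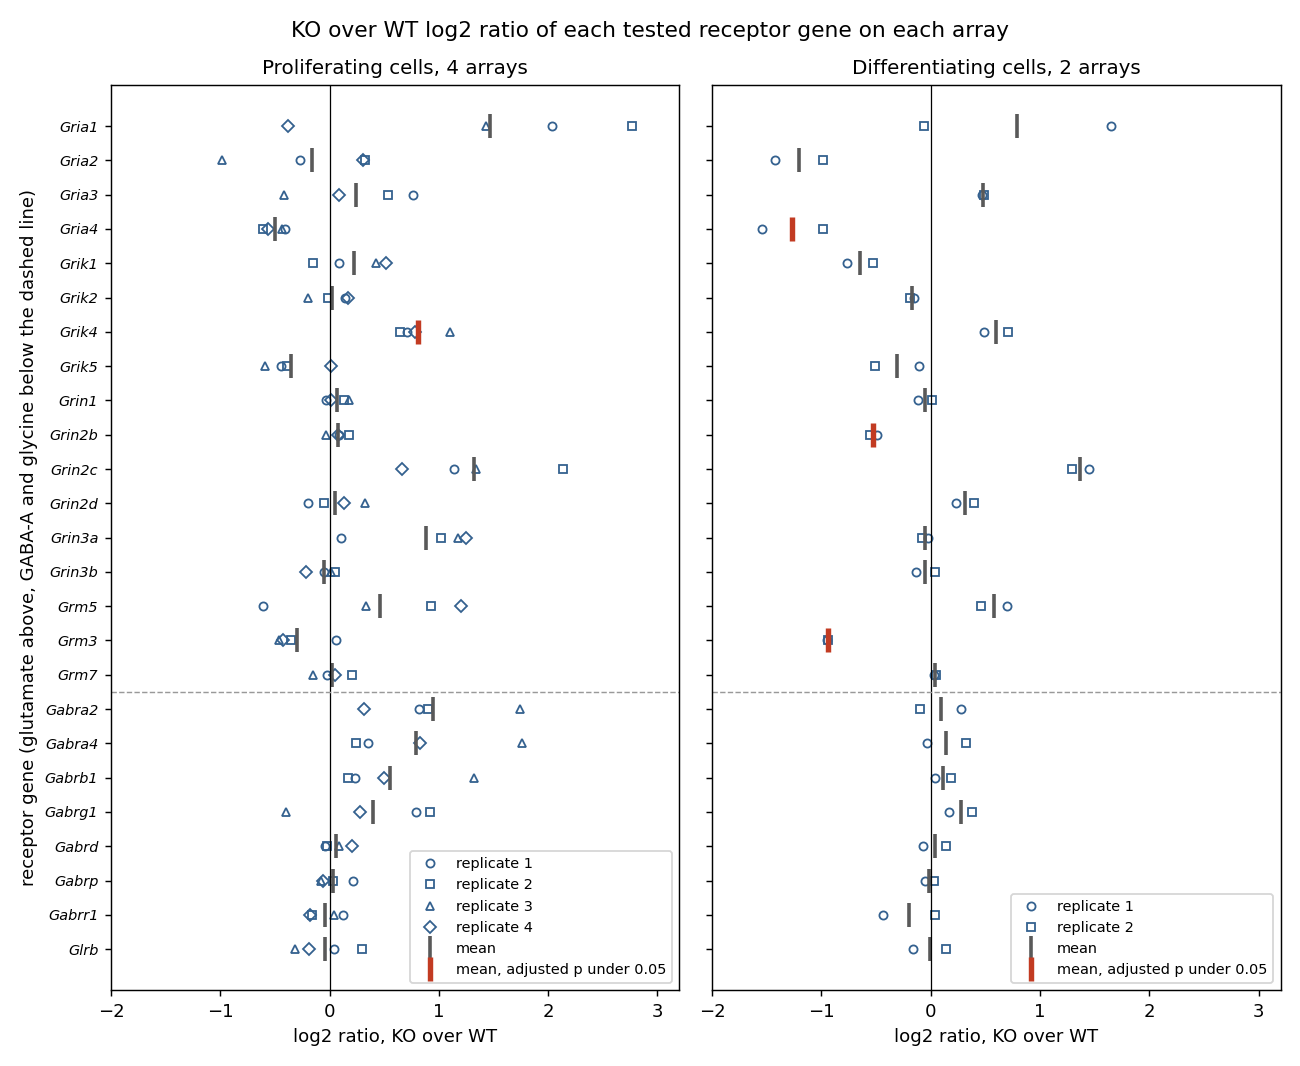
The log2 KO over WT ratio (horizontal axis) is plotted for 25 of the 28 tested receptor genes (vertical axis) on 4 proliferating (left) and 2 differentiating arrays (right); open symbols are arrays, vertical marks are means, red where the adjusted p was under 0.05. Grik4 lies right of 0 on all 6 arrays, and Gria4, Grm3 and Grin2b lie left of 0 on both differentiating arrays.

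The 250 bases before the start of 3 of these genes are shown because C followed by G is the pair that Dnmt3a methylates; methylation itself was not measured. They are from RefSeq on build GRCm38.p6, where Gria4 starts after chr9:4796235-4796484, Grik4 after chr9:42944372-42944621 and Grm3 after chr5:9725353-9725602, all on the minus strand. Each is printed 5′ to 3′ on its gene's strand, with every CG in capitals, and CG reads the same on both strands.
Grik4: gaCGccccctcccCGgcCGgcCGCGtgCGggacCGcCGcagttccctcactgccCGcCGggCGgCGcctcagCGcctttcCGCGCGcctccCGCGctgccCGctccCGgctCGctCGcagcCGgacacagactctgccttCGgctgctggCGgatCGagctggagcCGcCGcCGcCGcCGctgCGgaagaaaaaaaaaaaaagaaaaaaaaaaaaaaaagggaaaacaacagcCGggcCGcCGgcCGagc
Gria4: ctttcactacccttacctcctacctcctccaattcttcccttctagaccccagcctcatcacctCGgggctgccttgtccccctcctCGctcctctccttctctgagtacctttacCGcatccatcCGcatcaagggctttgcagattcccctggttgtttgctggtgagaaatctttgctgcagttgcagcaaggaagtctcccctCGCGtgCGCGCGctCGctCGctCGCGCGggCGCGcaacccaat
Grm3: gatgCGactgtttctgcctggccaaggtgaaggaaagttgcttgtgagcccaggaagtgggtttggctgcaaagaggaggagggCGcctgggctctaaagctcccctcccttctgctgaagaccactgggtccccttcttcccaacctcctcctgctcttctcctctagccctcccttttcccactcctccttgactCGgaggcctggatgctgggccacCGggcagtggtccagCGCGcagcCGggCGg
Grik4 has 36 CG pairs in this window, a number that 2.6% of 32851 promoters reach. Gria4 has 16, reached by 25.4%, and Grm3 has 8, reached by 43.0%. At least 1 CG is in 92.1% of all promoters of this length, with a median of 6. The table matched 33 of the 47 receptor genes and 18 of the 28 tested, and the 40 promoters of the matched genes hold 0 to 42 CG pairs with a median of 8. The windows of the matched genes thus span the low and the high end, while the 3 printed ones all lie above the median of all promoters. Counts of CG say nothing of methylation in these cells.

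Among kainate receptor genes, Grik4 encodes a high-affinity subunit (GluK4) that forms channels with GluK1 to GluK3. Its probe lies at chr9:42454857-42454916 (build mm7). The log2 signal of Grik4 in proliferating WT cells was 8.35, 8.77, 8.43 and 9.94 on replicates 1 to 4, and in proliferating KO cells 9.06, 9.42, 9.54 and 10.72. KO was above WT on each of the 4 arrays, by 0.70, 0.65, 1.10 and 0.78 on the log2 scale, although the WT and KO levels overlap, with both channels of replicate 4 high. The mean ratio was 0.81 ± 0.20 (SD, n = 4; SE 0.09), a 1.75-fold difference with an adjusted p of 0.0275 (limma). In differentiating cells the WT signals of Grik4 were 10.65 and 10.16 and the KO signals 11.14 and 10.87. KO was again above WT on both arrays and the groups did not overlap, with a mean log2 ratio of 0.60 ± 0.15 (SD, n = 2), which did not pass (adjusted p = 0.0703). The call in proliferating cells ended in 8 of 19 alternatives, among them leaving out replicate 2, 3 or 4 (adjusted p 0.107, 0.0791 and 0.117), either differentiating array (0.122 each) and replicates 3 and 4 together (log2 ratio 0.68, adjusted p = 0.101).

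The other kainate genes did not pass in either condition. Grik1, whose subunit GluK1 is found in interneurons, had log2 KO over WT ratios of 0.08, -0.16, 0.43 and 0.52 in proliferating and -0.76 and -0.53 in differentiating cells. Its probe was well above background in differentiating WT cells (2 of 2 arrays) and in no other group, so its ratio there is a bound, at least 1.56-fold lower in KO (adjusted p = 0.151). Grik1 met the filter only through that group, so the filter itself favoured a lower KO value there. Grik5, the high-affinity subunit GluK5, averaged -0.35 ± 0.26 (SD, n = 4; adjusted p = 0.147) and -0.31 ± 0.29 (SD, n = 2). Grik2, the widely expressed GluK2, averaged 0.02 ± 0.17 and -0.17 ± 0.03. Within the kainate class, then, Grik4 and Grik5, which both encode high-affinity subunits, had ratios of opposite sign in both conditions, and the difference between them was not tested.

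Among AMPA receptor genes, Gria4 (GluA4, a subunit of fast channels, found in interneurons and in glial precursors) was lower in KO RNA on all 6 arrays. Its log2 signals in differentiating cells were 9.48 and 8.49 in WT and 7.94 and 7.50 in KO. Both KO values lay below both WT values, and the ratios were -1.54 and -0.99. The mean of Gria4 was -1.27 ± 0.39 (SD, n = 2; SE 0.11), a 2.41-fold lower signal in KO (adjusted p = 0.0145, limma). In proliferating cells its WT signals were 8.07, 8.74, 7.19 and 7.57 and its KO signals 7.66, 8.14, 6.76 and 7.01. The levels varied more between replicates than between genotypes, but the ratios were close together, at -0.41, -0.61, -0.43 and -0.57, with a mean of -0.50 ± 0.10 (SD, n = 4) that did not pass (adjusted p = 0.0585). The probe shown lies at chr9:4335595-4335654 (build mm7), and the 3 other Gria4 probes also averaged below 0, at -0.22, -0.22 and -0.30 in proliferating and -0.62, -0.81 and -0.62 in differentiating cells. The fall of Gria4 in differentiating cells ended in 3 of 19 alternatives.

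Gria2 encodes GluA2, the subunit that keeps most AMPA channels closed to calcium. Its ratios were -0.27, 0.32, -0.98 and 0.31 in proliferating cells and -1.43 and -0.99 in differentiating cells. The proliferating arrays lay on both sides of 0, and the differentiating mean of -1.21 ± 0.31 (SD, n = 2) did not pass (adjusted p = 0.106). Gria1 (GluA1) had ratios of 2.04, 2.77, 1.43 and -0.38, then 1.65 and -0.07. These differed widely between replicates (SD 1.35, n = 4; adjusted p = 0.296), and the gene's other probe averaged 0.14 in proliferating and -0.25 in differentiating cells, so the probes of Gria1 disagree in size and sign. Gria3 (GluA3) averaged 0.24 ± 0.52 and 0.48 ± 0.01 and passed in neither condition.

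Among NMDA receptor genes, Grin2b fell in differentiating KO cells. It encodes GluN2B, the glutamate-binding subunit typical of immature neurons. Its log2 signals there were 6.93 and 7.64 in WT and 6.44 and 7.08 in KO. Each array had KO below WT, by 0.49 and 0.56, while the groups overlap, with replicate 2 higher in both channels. The mean of Grin2b was -0.53 ± 0.05 (SD, n = 2; SE 0.09), 1.44-fold lower, with an adjusted p of 0.0487 (limma). This call rests on 1 dim probe, at chr6:136187779-136187838 (build mm7), well above background in WT on both differentiating arrays and in KO on 1 of them. The 3 other Grin2b probes averaged 0.01, -0.02 and 0.07, and the mean over the probes that passed the filter was -0.23 (adjusted p = 0.232). The call ended in 13 of 19 alternatives, and without proliferating replicates 3 and 4 the adjusted p of Grin2b was 0.0832. In proliferating cells the ratios were 0.09, 0.18, -0.03 and 0.08.

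Grin2c, which encodes GluN2C, a subunit of cerebellar and glial NMDA receptors, was above WT in KO RNA on all 6 arrays without passing. Its log2 signals in proliferating cells were 7.50, 8.18, 9.54 and 7.11 in WT and 8.63, 10.32, 10.87 and 7.78 in KO. The levels overlap, and the ratios of 1.14, 2.13, 1.34 and 0.66 averaged 1.32 ± 0.61 (SD, n = 4; adjusted p = 0.0806). In differentiating cells the signals of Grin2c were 7.50 and 7.64 in WT and 8.95 and 8.93 in KO. There the groups did not overlap, with a mean log2 ratio of 1.37 ± 0.11 (SD, n = 2; adjusted p = 0.101). Without proliferating replicates 3 and 4 Grin2c passed in both conditions, at 1.63 (adjusted p = 0.0363) and 1.37 (adjusted p = 0.0217).

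Grin3a encodes GluN3A, a subunit that lowers the calcium flow of NMDA channels during development. Its ratios were 0.11, 1.02, 1.17 and 1.25 in proliferating cells, a mean of 0.89 ± 0.53 (SD, n = 4; adjusted p = 0.113). Replicate 1 lay near 0 and the other 3 arrays near 1. Without replicates 3 and 4 the mean of Grin3a was 0.56 (adjusted p = 0.309). In differentiating cells the ratios of Grin3a were -0.03 and -0.08. Its other probe never stood well above background. Grin1, which encodes the obligatory subunit GluN1, averaged 0.07 ± 0.10 and -0.05 ± 0.09, Grin2d (GluN2D) 0.05 ± 0.23 and 0.31 ± 0.11, and Grin3b (GluN3B) -0.05 ± 0.12 and -0.05 ± 0.12. None of the 3 passed.

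Among metabotropic receptors, Grm3 fell in differentiating KO cells. It encodes mGluR3, a receptor of group II that lowers cyclic AMP and is found on astrocytes as well as neurons. Its log2 signals were 9.04 and 9.66 in differentiating WT cells and 8.09 and 8.72 in differentiating KO cells. Both KO values lay below both WT values, with ratios of -0.95 and -0.94. The mean was -0.94 ± 0.01 (SD, n = 2; SE 0.14), 1.92-fold lower in KO (adjusted p = 0.0378, limma). In proliferating cells the ratios of Grm3 were 0.06, -0.36, -0.47 and -0.42, with a mean of -0.30 ± 0.24 (SD, n = 4; adjusted p = 0.253). Replicate 1, which correlated least with the other proliferating arrays over all genes, was the one at 0.06, and the cause was not tested. The gene has 1 probe, at chr5:9523846-9523905 (build mm7), and its call ended in 7 of 19 alternatives.

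Grm5 encodes mGluR5, a receptor of group I that raises internal calcium and is known in neural progenitors. Its log2 signals on proliferating replicates 1 to 4 were 11.79, 11.06, 11.49 and 8.23 in WT and 11.18, 11.99, 11.82 and 9.44 in KO. Replicate 4 was low in both channels and the ratios, -0.61, 0.93, 0.33 and 1.20, did not share a sign (adjusted p = 0.336). Summed over 8 markers of dividing cells, the signal on replicate 4 was 19153 in WT and 29628 in KO, against 56597 to 85613 over both channels of the other 3 arrays. The part of this in the levels of Grm5 was not tested. The ratios of Grm7 (mGluR7, a presynaptic receptor of group III) averaged 0.02 ± 0.15 and 0.04 ± 0.01 and did not pass.

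**Figure D2:**
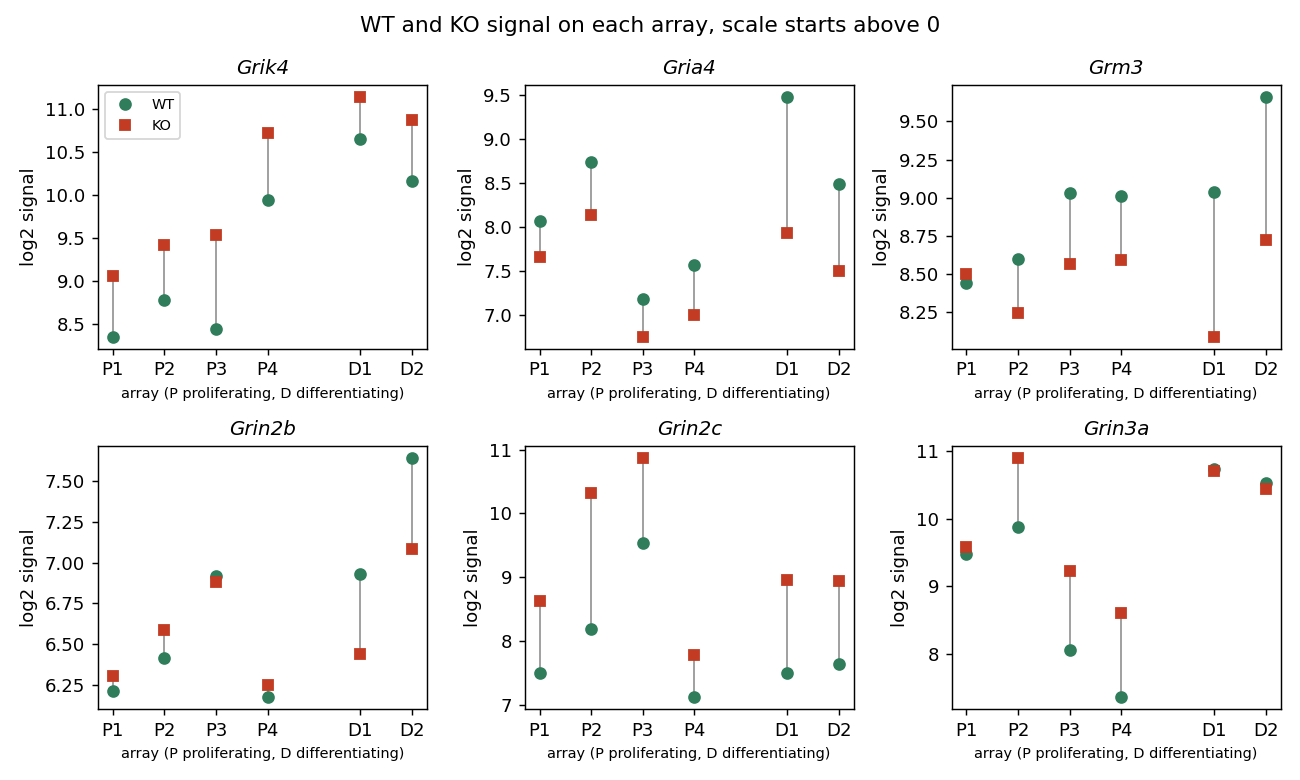
The log2 signal of WT (circles) and KO cells (squares) is plotted for 6 receptor genes on each array, with proliferating replicates P1 to P4 and differentiating replicates D1 and D2 on the horizontal axis and a line joining the channels of an array. Grik4 and Grin2c have KO above WT on every array, Gria4 has KO below WT on every array, and Grm3 and Grin2b have KO below WT on both differentiating arrays. Grin3a has KO above WT on all 4 proliferating arrays and the channels close together on both differentiating ones.

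Among GABA-A receptor genes, the 4 subunit genes of the chromosome 5 group, Gabrg1, Gabra2, Gabra4 and Gabrb1, were all tested, and their probes lie between positions 70123722 and 71507347 (build mm7). Gabra4 and Gabrb1 start 387 bases apart on opposite strands (GRCm38.p6). None of the 4 passed in either condition. Gabra2 (alpha-2, an early synaptic subunit) was well above background in KO on 4 of 4 proliferating arrays and in WT on 0 of 4, with ratios of 0.82, 0.90, 1.75 and 0.31. This put it at least 1.92-fold higher in KO, but the mean of 0.94 ± 0.59 (SD, n = 4) did not pass (adjusted p = 0.133). Its other probes averaged 0.43 and 0.51. Gabra4 (alpha-4, an extrasynaptic subunit) had ratios of 0.35, 0.24, 1.76 and 0.82, and Gabrb1 (beta-1) had 0.23, 0.17, 1.32 and 0.49. On replicate 3 the ratio was the highest of the 4 arrays for Gabra2, Gabra4 and Gabrb1, at 1.32 to 1.76, whereas Gabrg1 (gamma-1, found in glia) had its lowest there, with 0.79, 0.92, -0.40 and 0.28 over the 4 arrays. In differentiating cells the mean ratios of the 4 genes were 0.27 for Gabrg1, 0.09 for Gabra2, 0.14 for Gabra4 and 0.11 for Gabrb1.

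**Figure D3:**
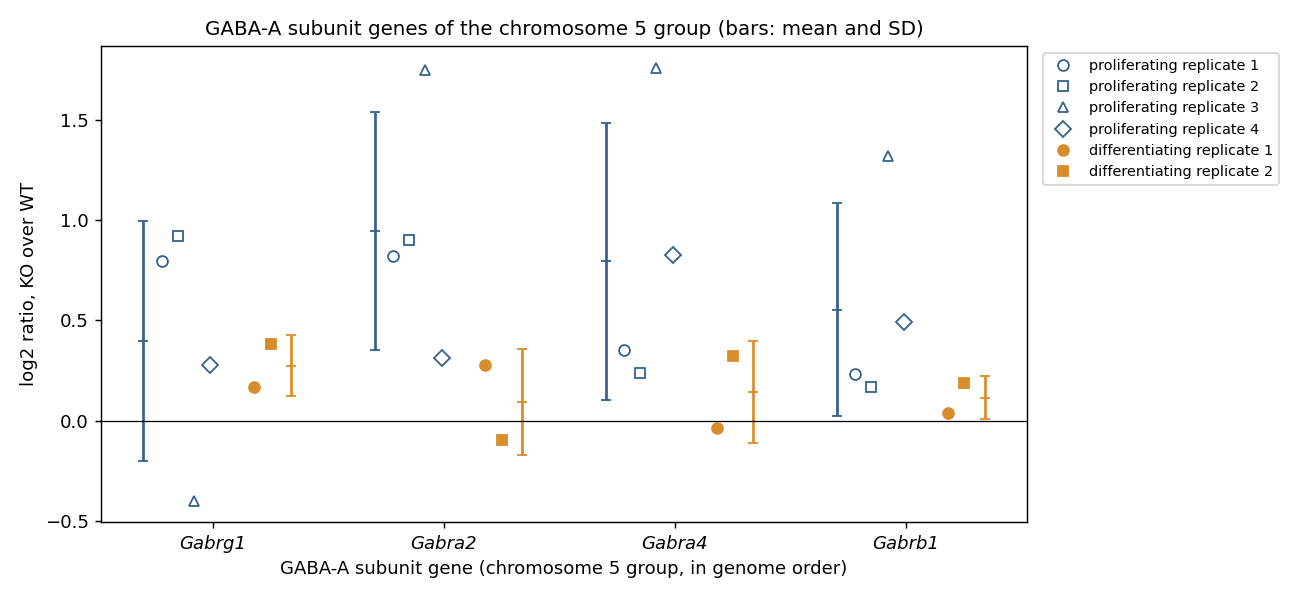
The log2 KO over WT ratio (vertical axis) of the 4 GABA-A genes on chromosome 5, in genome order, is plotted per array, open for proliferating and filled for differentiating cells, with bars for the mean ± SD. On proliferating replicate 3 (triangles) Gabra2, Gabra4 and Gabrb1 reach 1.32 to 1.76 while Gabrg1 is at -0.40.

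Other inhibitory genes had small ratios. Gabrd (delta, an extrasynaptic subunit) averaged 0.05 ± 0.12 and 0.04 ± 0.15, Gabrp (pi) 0.03 ± 0.13 and -0.01 ± 0.06, and Gabrr1 (rho-1) -0.05 ± 0.15 and -0.20 ± 0.34 in proliferating and differentiating cells. The glycine receptor gene Glrb averaged -0.04 ± 0.27 and -0.01 ± 0.21. None of these passed.

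For no receptor gene did the KO effect differ between the conditions at an adjusted p under 0.05 (limma), where 0.0498% of all genes did, although 8 of the 28 had an unadjusted p under 0.05, as did 12.1% of all genes. With the authors' value table in place of the scanner signals, 1 receptor gene passed. Among the differences of smallest p, differentiating minus proliferating, were -0.76 for Gria4 (adjusted p = 0.140), -0.60 for Grin2b (0.151), -0.86 for Grik1 (0.232) and -0.65 for Grm3 (0.248). These 4 were negative, but Grik1 met the filter only through differentiating WT cells, which itself favoured a negative difference. The falls in differentiating cells are therefore not shown to differ from the values in proliferating cells. For Grik4 the difference was -0.21, with a 95% interval of the fit from -0.58 to 0.16.

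Mitogen withdrawal was followed within each genotype through the signals of the separate channels. Proliferating and differentiating cells were on different slides and scans, so condition and slide cannot be told apart in these values. In WT cells 6 of the 28 receptor genes passed, all higher in differentiating cells, where 17.2% of all genes passed and 10.5% were higher. Among them were Grik4, Grin2b, Grik1, Gabrd and Grin3a. Grik1 was tested only through its signal in differentiating WT cells, so the filter itself selected for its rise. In KO cells 4 passed, where 18.1% of all genes passed and 11% were higher. Gabrd, Grik4 and Grin2d were among these, and all 4 were higher in differentiating cells. The median log2 change over the 28 was 0.47 in WT and 0.20 in KO cells, against 0.06 and 0.05 over all genes. The shares of members called were 21.4% in WT and 14.3% in KO cells. Both lie near the shares of all genes called in either direction, and the WT share lies above the 10.5% called higher. Whether these shares differ was not tested. Leaving out 1 array moved the counts: in WT and KO cells 1 and 1 passed without proliferating replicate 1, 4 and 0 without replicate 2, 3 and 0 without replicate 3, 8 and 7 without replicate 4, 0 and 0 without differentiating replicate 1, and 1 and 0 without differentiating replicate 2.

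Grik4 was higher in differentiating cells of both genotypes, by 1.53 in WT (2.89-fold, adjusted p = 0.0249, limma) and 1.32 in KO (2.50-fold, adjusted p = 0.0423) on the log2 scale. Its differentiating signals in the 2 genotypes, 10.16 to 11.14, lay above those of proliferating replicates 1 to 3, while replicate 4, at 9.94 in WT and 10.72 in KO, lay close to them. Without proliferating replicates 3 and 4 the rises of Grik4 were 1.84 (adjusted p = 0.0013) and 1.77 (0.0015). The calls of Grik4 ended in 5 of 12 alternatives in WT and 7 of 12 in KO cells. Leaving out proliferating replicate 1, 2 or 3 alone, or either differentiating array, ended both. Gabrd rose in both genotypes, by 0.55 (adjusted p = 0.0369) and 0.54 (adjusted p = 0.0408). Its probe was dim, well above background on 1 of 4 proliferating and 2 of 2 differentiating arrays in each genotype. The call of Gabrd ended in 6 of 12 alternatives in each genotype, the fit with a dye term among them. Its log2 signals went from 6.30, 6.40, 6.53 and 6.52 to 6.98 and 7.00 in WT, and from 6.25, 6.37, 6.61 and 6.73 to 6.91 and 7.14 in KO, with no overlap in either genotype.

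Grin2b and Grik1 passed in WT cells, at log2 changes of 0.86 (1.81-fold, adjusted p = 0.0339, limma) and 0.75 (at least 1.65-fold, adjusted p = 0.0362). Grik1 met the filter only through its signal in differentiating WT cells, so its rise there is not independent of the filter. In KO cells Grin2b stood at 0.26 (adjusted p = 0.490) and Grik1 at -0.11 (0.745). Their ratios of KO to WT in differentiating cells, given above, share the same WT samples and are no independent evidence of this. The proliferating signals of Grik1 reached at most 6.26 in WT and 6.52 in KO, and its differentiating signals 6.92 and 6.69 in WT and 6.16 and 6.16 in KO.

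Grin3a was higher in differentiating WT cells by 1.94 (3.83-fold, adjusted p = 0.0481) and stood at 1.00 in KO cells (adjusted p = 0.270). Its WT signals were 9.48, 9.88, 8.06 and 7.36 in proliferating and 10.74 and 10.53 in differentiating cells, and the lowest proliferating values were those of replicates 3 and 4. Without these the rise of Grin3a was 0.95 and did not pass (adjusted p = 0.102). Grin2d passed in KO cells, at 0.74 (1.67-fold, adjusted p = 0.0429), and stood at 0.48 in WT cells (adjusted p = 0.164). Its KO signals were 9.57, 9.37, 9.55 and 9.15 in proliferating and 10.35 and 9.96 in differentiating cells, without overlap. Without replicates 3 and 4 Grin2d stood at 0.68 in KO cells and did not pass (adjusted p = 0.0624).

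Grm5 had the lowest values of the 28 in both genotypes, -2.22 in WT (adjusted p = 0.0795) and -2.11 in KO (adjusted p = 0.0898), without passing. Its differentiating signals were 8.33 and 8.50 in WT and 9.03 and 8.96 in KO, near those of proliferating replicate 4 and below the 11.06 to 11.99 of replicates 1 to 3. Without replicates 3 and 4 the change of Grm5 in KO cells was -2.59 and passed (adjusted p = 0.0024). Gabrp was well above background on 4 of 4 proliferating arrays and on neither differentiating array in both genotypes, so its signal was at least 1.28-fold lower in differentiating WT cells (adjusted p = 0.127) and at least 1.32-fold lower in differentiating KO cells (0.0917), and neither passed. Grin3b stood at 0.56 in each genotype (adjusted p = 0.0549 and 0.0530).

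**Figure D4:**
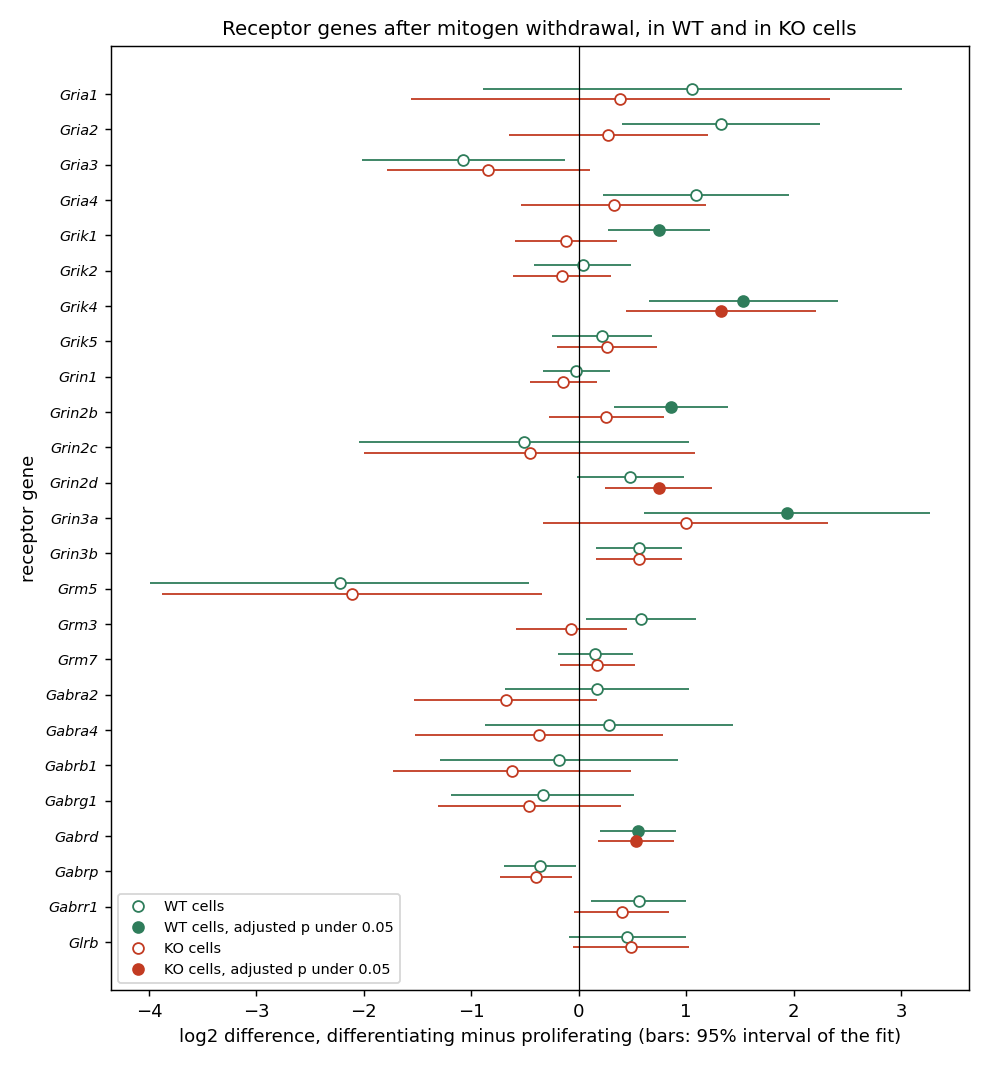
The log2 change of signal from proliferating to differentiating cells (horizontal axis) is plotted for 25 of the 28 tested receptor genes in WT and KO cells, with the 95% interval of the fit; filled points had an adjusted p under 0.05. The 5 filled WT points and 3 filled KO points all lie right of 0, and Grik4 and Gabrd are filled in both genotypes.

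Genes that act with these receptors were described by lists. None of the 2 GABA-B receptor genes, the 14 tested AMPA and kainate auxiliary subunits, the 13 inhibitory scaffold genes or the 6 chloride transporters passed in either condition. Of 18 tested glutamate receptor scaffolds, 0 passed in proliferating cells and Dlg3 (SAP102, which binds NMDA receptors) fell in differentiating cells, by 0.76 on the log2 scale (adjusted p = 0.0441, limma). Of 14 genes of glutamate supply and clearance, the transporter gene Slc1a1 (EAAT3) passed in proliferating cells, with ratios of 1.03, 1.39, 1.33 and 1.76 and a mean of 1.38 ± 0.30 (SD, n = 4; adjusted p = 0.0248), and none in differentiating cells.

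Of 10 tested genes of GABA and glycine supply and clearance, 0 passed in proliferating cells and 3 fell in differentiating KO cells. Slc32a1, the vesicular transporter of GABA and glycine, stood at -1.15 and -2.10, a mean of -1.62 ± 0.67 (SD, n = 2; adjusted p = 0.0284, limma). Slc6a11, the glial GABA transporter GAT-3, stood at -1.36 and -0.89, a mean of -1.12 ± 0.33 (SD, n = 2; adjusted p = 0.0313). Gldc, which breaks down glycine, stood at -1.14 and -0.84, a mean of -0.99 ± 0.21 (SD, n = 2; adjusted p = 0.0178). The list's median log2 ratio was -0.47 in differentiating cells, against -0.01 over all genes. Gad1, which makes GABA, had ratios of -2.81 and -2.58 there without passing (adjusted p = 0.0715), and on proliferating arrays 0.07, -0.31, -1.72 and -2.15, with replicates 3 and 4 apart from replicates 1 and 2.

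Some markers of cell types also differed between KO and WT cells. Of 12 neuron markers 6 fell in differentiating KO cells and 0 rose, with a median log2 ratio of -1.04; their summed signal was 29453 and 30378 on the differentiating arrays in WT and 12526 and 14114 in KO, against 9544 to 12634 in proliferating cells of both genotypes. Of 8 markers of myelinating oligodendrocytes 5 rose in differentiating KO cells, with sums on the differentiating arrays of 19009 and 11835 (WT) and of 114412 and 104213 (KO). Of 8 markers of dividing cells all 8 rose there, with sums of 2921 and 2427 (WT) and of 10498 and 8207 (KO). Of 10 astrocyte markers 2 rose, with sums of 151335 and 130584 (WT) and of 224184 and 160085 (KO). Of 7 ependymal markers 2 rose, and of 5 fibroblast and meningeal markers none passed. Of 8 neural stem cell markers 1 rose and 0 fell, with a median log2 ratio of -0.32. Their sums were 136391 and 166914 (WT) and 115827 and 106684 (KO). In proliferating cells 3 of 8 markers of oligodendrocyte precursors rose in KO, with a median log2 ratio of 0.93, and none of the neuron markers passed. The summed signal of the precursor markers was lower in KO on replicates 1 and 3 (153190 in WT to 97958 in KO, and 169755 to 103138) and higher on replicates 2 and 4 (97213 to 156881, and 89017 to 196034). KO RNA carried Cy5 on replicates 1 and 3 and Cy3 on replicates 2 and 4. In differentiating cells 1 precursor marker rose, and the sum went from 116462 to 183964 with KO in Cy3 (replicate 1). It went from 138383 to 125528 with KO in Cy5 (replicate 2). The direction of this sum followed the dye on all 6 arrays, and the part of the dye in it was not tested. No astrocyte or myelinating marker passed in proliferating cells, but both sums were higher in KO on all 4 proliferating arrays: 31330 to 68707 in WT and 88035 to 123600 in KO for astrocyte markers, and 3708 to 10155 in WT and 8897 to 43486 in KO for myelinating markers. Of 8 markers each, 6 for microglia and 4 for endothelial and mural cells were not tested, among them Csf1r and Cx3cr1, and Cldn5 and Cdh5, which were well above background on no array. The part of these cell types in the receptor values was not tested, and in RNA of whole cultures fewer cells of a type and less RNA per cell cannot be told apart.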

How the data were processed

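RNA of WT and KO cells, 500 ng per label, was compared on 6 arrays. For each spot and dye the deposited files give intensity values, the mean signal and the local background, written by Agilent Feature Extraction (version 9.5.1.1, design 014868; per the file headers). Its processed intensity values are background-subtracted and dye-normalized, and its log10 ratio is Cy5 over Cy3. The log10 ratios of the authors' value table equal the scanner ratios turned to KO over WT, with column medians of 0; the sources used here do not say whether they were centred further.

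Background correction of the mean signals used normexp with an offset of 50 (limma 3.58.1, R 4.3.3). They were normalized by loess within arrays, with control and outlier spots at weight 0 and then left out. Repeat spots were averaged. An accession gave the name of 22951 of 41174 probes and the file that of 18223; 60 of the 81 receptor probes had an accession match, and no name disagreed. Probe positions are those of the files (build mm7), and exons were not assigned.

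Log2 KO over WT ratios computed from the deposited signals were fitted with lmFit and eBayes over all 6 arrays, with a coefficient per condition and a dye term (3 residual and 2.56 prior degrees of freedom). Changes with condition came from the separate-channel fit after Aquantile (intraspot correlation 0.614, 18050 genes). P-values are 2-sided, adjusted by Benjamini-Hochberg over all genes tested; a gene passed under 0.05. SDs are over arrays and SEs from the fit. Replicates are biological per the labels. The fits were tested on simulated data. A fold written "at least" is a bound, used where no array of the dimmer group had the probe well above background. It divides the bright group's mean by a floor, the larger on each array of the probe's signal and the dimmest signal that stood well above background.

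The members, gene lists and alternatives were chosen with earlier results of these data known. Named genes were those that passed in a comparison, or the 6 of smallest p where fewer did; other members are given by class. Some genes that met this rule are counted but not reported here. Gria2, Gria1, the chromosome 5 genes and Gad1 are described beyond that rule, chosen after their values were seen. The replicate numbers were not taken as pairs across the 2 conditions. Deviations of same-numbered arrays from the mean of their condition correlated at -0.369 and -0.288. Same-numbered arrays carried opposite dyes and dye was not removed from these deviations, so the correlations cannot show whether the replicates were paired. Normalization, filters, dye term, probe choice, replicates and blocks were varied.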

Additional observations from a re-analysis of the deposited data

Results flagged for a closer look

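Grin3a was singled out because its log2 KO over WT ratio was above 0 on all 4 proliferating arrays (0.11 to 1.25) and below 0 on both differentiating arrays (-0.03 and -0.08). Subtracting the proliferating from the differentiating KO effect gave -0.941, with a 95% interval of the fit from -1.73 to -0.16, and did not pass (adjusted p = 0.332, limma).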

How the results depend on the processing

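Main counts of receptor genes that passed were 1 (KO against WT, proliferating), 4 (differentiating), 0 (difference between KO effects), 6 (withdrawal in WT) and 4 (withdrawal in KO). In proliferating cells the count was 3 with Agilent's processed signals, 2 with no dye term, 0 with the arrays of the condition alone, 3 with proliferating arrays 3 and 4 left out and 2 with the authors' value table. In differentiating cells it was 1 with median centring, where Gria4 passed, and 8 with the arrays of the condition alone. The difference gave 1 with the authors' value table. With a dye term the withdrawal counts were 3 in WT and 1 in KO. With replicate number as a fixed block over replicates 1 and 2 alone, which also drops proliferating replicates 3 and 4 and the dye term, the counts were 0 and 1 in proliferating and differentiating cells. As a fixed block over all arrays it gave 10 for withdrawal in WT and 6 in KO; as a random block the counts of KO against WT were 1 in proliferating and 4 in differentiating cells. Leaving out 1 array gave 0 to 2, 0 to 3, 0 to 0, 0 to 8 and 0 to 7 in the order above. The cause of these changes was not tested. Most counts under alternatives, here and above, are given without the share of all genes that passed. They therefore do not show whether a change was particular to receptor genes. A left-out differentiating array leaves a lone array assumed to vary like the others. Over 480 values of single genes under alternatives, 361 stayed on their side of the threshold in the same direction, 96 lost it, 23 gained it and 0 changed sign. The 361 include genes that did not pass in the main fit and again did not pass, while all 96 losses are of calls made there. Leaving out an array of the other condition left the KO over WT ratio of a gene unchanged, so its sign could not change in those alternatives. In differentiating cells the adjusted p ranged over the alternatives from 0.0050 to 0.277 for Gria4, 0.0057 to 0.501 for Grm3 and 0.0219 to 0.639 for Grin2b, and for Grik4 in proliferating cells from 0.0172 to 1.00. Slide and scan as a block could not be run, since each condition had its own slide and scan.

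Signal over background limits Grik1, Gabra2 and the withdrawal changes of Gabrp to bounds, and leaves the 19 receptor genes not tested without values.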
